A study of Homo sapiens with 8 samples.

Results

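The genes described here were the 43 protein-coding collagen chain genes, those whose symbol is COL, a number, A and a number, with COL17A1 left out. They were found by matching the Ensembl identifiers of the deposited count table to gene symbols, and they make up 43 of its 56632 genes. RNA-seq of poly A+ RNA was done on 4 isogenic human mammary epithelial cell lines, with 2 biological replicates each. M1 is MCF10A, a non-tumorigenic line. M2 is MCF10AT1k.cl2, made from M1 by introducing T24-HRAS, an activated form of the signalling gene HRAS, and then selected by xenografting. The other 2 lines came from carcinomas formed by M2 xenografts in mice and carry the same HRAS transgene, M3 being MCF10Ca1h and M4 MCF10CA1a.cl1. All cells were grown for 8 days as acini in Matrigel, an extract of mouse basement membrane, in medium with 2% horse serum and 2.5% Matrigel. The M1 and M2 medium held 10 ng/ml of the growth factor EGF, and that of M3 and M4 held 0. Line and medium therefore cannot be told apart in any comparison of M3 or M4 with M1 or M2, and only M2 against M1 and M4 against M3 shared a medium. Each line is a single derivative, so that a difference between lines is a difference between these derivatives.

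Collagens are extracellular proteins in which 3 chains, each the product of one gene, wind into a triple helix. Chains assemble only in set combinations, so a chain whose partner is missing cannot form the usual trimer. Type IV collagen is the network of the basement membrane, the sheet on which epithelial cells sit. It occurs as trimers of COL4A1 with COL4A2, of COL4A3 with COL4A4 and COL4A5, and of COL4A5 with COL4A6. Each of these gene pairs lies head to head on one chromosome. Type VII collagen anchors the basement membrane of skin and other stratified epithelia to the tissue beneath, fibrillar collagens such as types I, III and V form the tensile fibres of connective tissue and come mostly from fibroblasts, and fibril-associated collagens decorate those fibres.

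The expected counts per library summed to between 69669970 and 107350344. Levels are given as CPM, counts scaled to the library total after TMM normalization, and are compared between genes only per kilobase of exon (CPM per kb). The exon length joined the exons of all annotated transcripts of a gene and can exceed that of the transcript expressed. It was 14662 bases for COL4A1 and 19271 for COL4A2, against 11871 for COL4A5 and 9282 for COL4A6. Shares, ranks and ratios per kb depend on this choice. A gene was called different between 2 lines at an adjusted p below 0.05 with a log2 fold change beyond 1 either way, in edgeR's quasi-likelihood test over all 18431 genes tested. Spearman's rho between replicates, across genes, was 0.998 in M2 and 0.971 to 0.986 in the other lines, and the coefficient of variation between replicates was 0.058 in M2 and 0.271 to 0.377 in the others. One doubt about the libraries bears on every comparison with M1 or M2. The labels assign one library to M1 as replicate 2 and another to M2 as replicate 1, whereas a table published with the study has these libraries the other way round. The labels were followed, and results are also given with the 2 libraries exchanged and with neither of them in the fit. M4 against M3 holds neither library, so its fold changes hardly moved in these refits. Its calls could still change, because the spread was estimated over all lines together. Across genes, Spearman's rho was 0.971 for the M1 pair and 0.998 for the M2 pair as labelled, and 0.96 and 0.962 for the pairs the exchange would form. HRAS itself was not called between M2 and M1, at 154 and 139 CPM in M1 and 160 and 154 CPM in M2 (log2 0.10, SE 0.15, adjusted p = 0.736), and stood at 269 and 327 CPM in M3 and 335 and 352 CPM in M4. The HRAS levels of the libraries in doubt were the 139 CPM labelled M1 and the 160 CPM labelled M2. All 8 epithelial marker genes examined were at 1 CPM or more in every library, with a summed level of 7232 to 15420 CPM. The summed level of 9 fibroblast and perivascular markers ran from 108 CPM in M1 replicate 1 to 1987 CPM in M3 replicate 1 and was led by VIM, which cultured epithelial cells also express. Of the 8 of these that were tested, 2 were called higher and 0 lower in M3 against M1, where 8.02% and 5.51% of all genes tested were. In M4 against M1 the counts were 1 and 2 (all genes 9.48% and 11.2%), and in M4 against M3 0 and 2 (3.99% and 6.3%). With 8 genes such counts are too small to set apart from these shares. THY1, a surface protein of fibroblasts and other cells, stood at 0.0121 and 0 CPM in M1, 0.0491 and 0 for M2, 6.08 and 1.76 for M3, and 0.0176 and 0.0384 in M4. M3 was called higher than M1 (adjusted p = 0.00375) and M2 (adjusted p = 0.0135). With so few counts elsewhere, THY1 passed the filter on low counts through M3 alone, so these calls are no support for the difference. FAP, a protease of activated fibroblasts, stood at 1.96 and 2.82 CPM in M1, 7.15 and 6.08 for M2, 41.7 and 9.06 for M3, and 30.1 and 12.1 in M4 and was called higher than in M1 in both M3 (log2 3.41, SE 0.76, adjusted p = 0.0203) and M4 (log2 3.14, SE 0.75, adjusted p = 0.0183). S100A4 went the other way, at 35.4 and 19.6 CPM in M1, 13 and 12.9 for M2, 16.7 and 8.44 for M3, and 3.96 and 4.47 in M4. It was called lower in M4 than in M1 (log2 -2.71, SE 0.39, adjusted p = 0.00227). PDGFRA was below 1 CPM in every library and was also called lower in M4 than in M1 (adjusted p = 0.0211). VIM, ACTA2, TAGLN and PDGFRB were called in no comparison, and TCF21 was at 0. Of 5 blood cell markers CD68, a lysosomal protein of macrophages, stood at 51.4 and 39 CPM in M4 against 4.03 to 25.1 CPM elsewhere and was called higher in M4 than in M1 (log2 2.73, SE 0.66, adjusted p = 0.0199) and M2 (log2 2.92, SE 0.67, adjusted p = 0.022), and CD14 stood at 24.6 and 14.3 CPM in M1, 4.54 and 4.55 for M2, 5.62 and 2.4 for M3, and 2.03 and 1.06 in M4 and was called lower than in M1 in M3 (log2 -2.28, SE 0.49, adjusted p = 0.0165) and M4 (log2 -3.65, SE 0.52, adjusted p = 0.00228). PTPRC was at 0 or 0.0366 CPM, LYZ at no more than 0.464 CPM and CD3E at 0. LYZ was called lower than M1 in M2, M3 and M4 (adjusted p = 0.0353, 0.0429 and 0.0322). It passed the filter on low counts through M1 alone, so these calls are no support for a difference. Of 4 endothelial markers KDR, a receptor for VEGF, stood at 2.33 and 3.04 CPM in M1, 0.187 and 0.0995 for M2, 1.76 and 1.18 for M3, and 0.0529 and 0.0128 in M4, with M2 and M4 called lower than M1 (adjusted p = 0.0108 and 0.000763), and VWF, CDH5 and TIE1 were at no more than 0.229 CPM. VWF was called lower in M3 than in M1 (adjusted p = 0.0472). In all, KDR was called in 4 and VWF in 2 of the 6 comparisons. The part of such cells in the collagen results was not tested.

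COL4A1 lies at chr13:110801310-110959504 on the minus strand and COL4A2 at chr13:110958159-111165556 on the plus strand (GRCh37, GENCODE release 44 annotation). The canonical transcripts of both start on either side of a segment of 126 bases at chr13:110959505-110959630. It is shown because both genes are read outward from it and both were higher in M3 and M4 than in M1. The plus strand is printed, with the CCAAT box and the GC box in capitals.
COL4A1/COL4A2 shared start region: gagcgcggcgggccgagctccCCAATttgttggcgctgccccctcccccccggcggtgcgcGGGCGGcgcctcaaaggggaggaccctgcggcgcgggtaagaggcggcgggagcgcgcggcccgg
The segment is 80.2% G or C. Both strands were searched. The CCAAT box was searched by the letters in its name, and 1 was found, as in 24.2% of 19540 promoter windows of the same length. The GC box, searched as GGGCGG, had 1 match, as in 50.3% of the windows, without overlap with the first. The TATA box, searched as TATAAA, was not found and is held by 6.1% of the windows. The AP-1 site, searched as TGANTCA, was not found either and is held by 2.3%. The canonical starts of COL4A6 and COL4A5 are 1415 bases apart on chromosome X and those of COL4A4 and COL4A3 418 bases apart on chromosome 2.

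Of the 43 collagen genes, 27 had enough counts to be tested and 20 of these were called in at least 1 of the 6 comparisons between lines, 50 calls in all. In M2 against M1, 3 were called higher and 0 lower, where 2.26% and 1.11% of all genes tested were. In M3 against M1, 7 were higher and 4 lower, against a background of 8.02% and 5.51%. In M4 against M1, 4 were higher and 8 lower (background 9.48% and 11.2%), which is 14.8% and 29.6% of the members tested. In M3 against M2, 4 were higher and 3 lower (2.95% and 1.2%). In M4 against M2, 4 were higher and 7 lower (6.98% and 6.94%). In M4 against M3, the comparison of carcinoma-derived lines in one medium, 0 were higher and 6 lower (3.99% and 6.3%). At an unadjusted p below 0.05 in the edgeR test, 11, 16, 16, 12, 12 and 14 members differed in the 6 comparisons in this order. DESeq2 called 9 in M4 against M3. The shares of all genes at that limit and under DESeq2 were not taken, so these counts cannot be set against a background. COL22A1 passed the filter on low counts through M3 only and so had to differ, and without its 3 calls 47 were left, with 6 higher in M3 against M1, 3 higher in M3 against M2 and 5 lower in M4 against M3. COL6A2 passed through M3 and M4 only, so that its 4 calls, all of M3 or M4 over M1 or M2, were favoured too. So were the calls of M4 below M1 for COL14A1, which passed through M1 and M3, and COL9A2, which passed through all lines but M4. The same holds for M4 over M2 for COL4A3, which passed through all lines but M2. The calls of COL6A2, COL14A1, COL9A2 and COL4A3 remain in these counts. The members' median log2 fold change was furthest from that of all genes in M4 against M2 (-0.73, all genes -0.01) and M4 against M3 (-0.69, all genes -0.02).

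**Figure D1:**
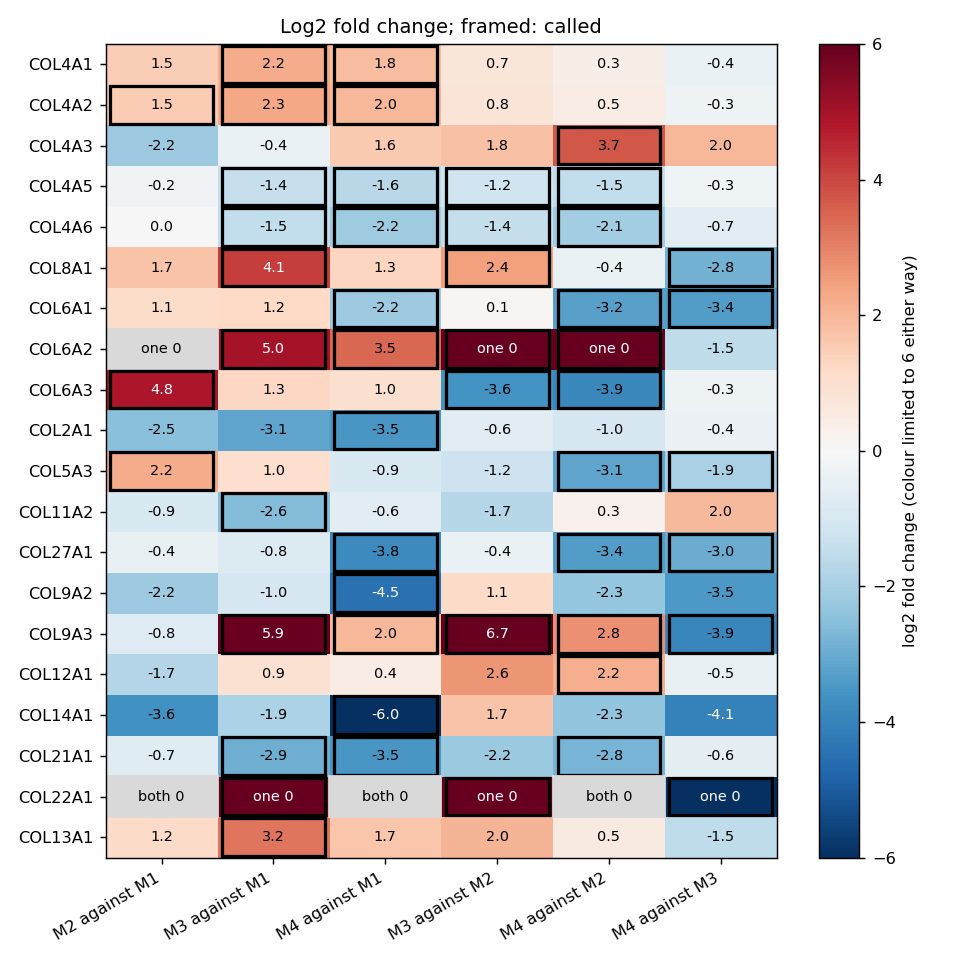
Log2 fold change of the 20 collagen genes called in at least 1 comparison (rows) in the 6 comparisons (columns), first line over second; black frames mark calls. "One 0" and "both 0" mark comparisons with no counts in one line or in both, where a fitted fold is not given. COL4A5 and COL4A6 are framed in the same 4 comparisons, all of them lower.

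Many calls were lost in refits. How many calls of all genes were lost was not counted, so the losses cannot be read as particular to collagens. Of the 50, 7 held under all 16 refits, namely each of the 8 libraries left out in turn, other scalings, filters and models, and both treatments of the doubtful libraries. These 7 were COL4A6 in M3 against M1, M4 against M1 and M4 against M2, COL4A5 and COL27A1 in M4 against M1, COL6A1 in M4 against M2, and COL9A3 in M3 against M1. With the doubtful libraries exchanged 18 of the 50 calls were kept, and with neither of them 26. The exchange added 0 calls and leaving out both added 5, which were COL1A1 and COL13A1 in M4 against M1, COL2A1 in M3 against M1, and COL9A2 and COL13A1 in M4 against M3. Without M2 replicate 1 or M2 replicate 2, 28 were kept.

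The most abundant collagen transcripts per length were those of basement membrane, anchoring fibril and fibril-associated chains. COL4A5 was first in M1 replicate 1 and in both M2 libraries with 20.7% to 24.5% of the summed collagen CPM per kb, COL16A1 in M1 replicate 2 (33.2%) and M4 replicate 1 (18.3%), COL9A3 in both M3 libraries (13.9% and 26.7%), and COL7A1 in M4 replicate 2 (16.7%). The 6 type IV chains together held 43.8% to 49.9% of the collagen total in M1 and M2, 27.9% and 21.1% for M3, and 36.1% and 40.9% in M4. With these exon lengths they were thus a smaller share in every M3 and M4 library than in any M1 or M2 library. Fibrillar chains held 15.1% in M1 replicate 1 and 3.85% to 8.09% elsewhere. The summed collagen level itself overlapped between lines, with 42.3 and 78.7 CPM per kb in M1, 59.9 and 57.3 for M2, 50.5 and 99.7 for M3, and 38.1 and 32.1 in M4. Bulk RNA cannot tell fewer cells expressing a gene from less RNA per cell.

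**Figure D2:**
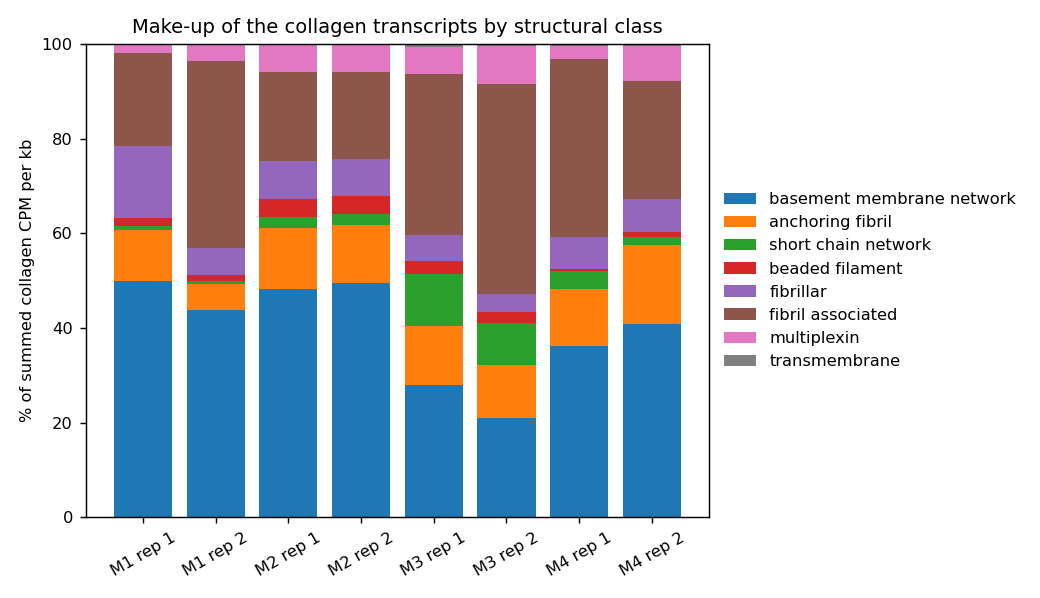
Share of the summed collagen CPM per kb (vertical axis, %) taken by each structural class in each of the 8 libraries. The basement membrane share is largest in M1 replicate 1 at 49.9% and smallest in M3 replicate 2 at 21.1%.

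**Figure D3:**
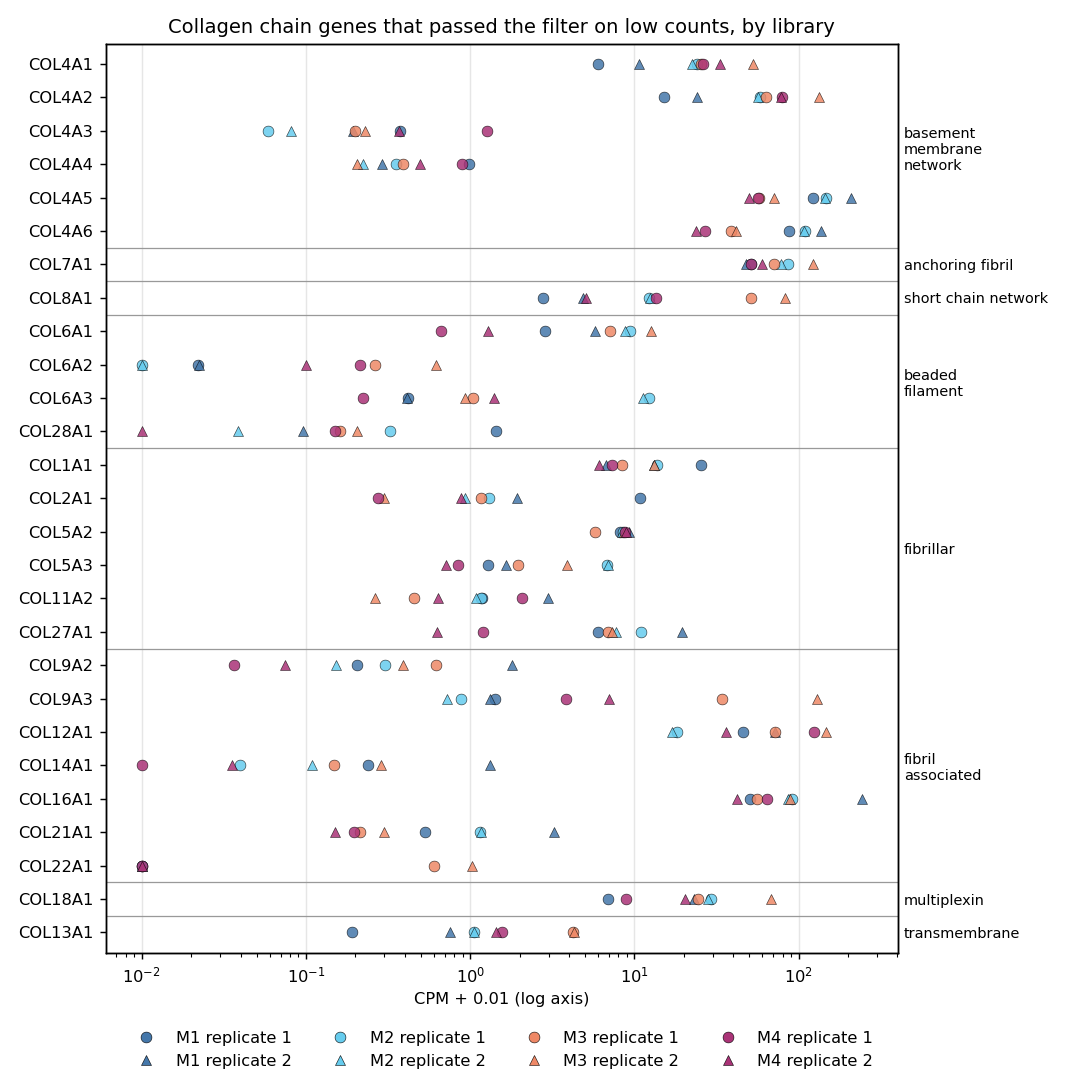
CPM (log axis, 0.01 added) of the 27 collagen genes with enough counts to be tested, in each of the 8 libraries, with colours for lines and shapes for replicates. COL4A2, COL4A5, COL4A6, COL7A1, COL12A1 and COL16A1 lie above 10 CPM in every library, and COL22A1 is above 0 in M3 only.

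The 2 ubiquitous type IV chains were higher in M3 and M4 than in M1. COL4A1, the chain found in nearly all basement membranes, stood at 5.97 and 10.7 CPM in M1, 24.2 and 22.6 for M2, 25.4 and 52.6 for M3, and 26.2 and 33.4 in M4. Its obligate partner COL4A2 stood at 15.2 and 24.2 CPM in M1, 57.9 and 56.9 for M2, 63.7 and 133 for M3, and 79.3 and 78.3 in M4. Both M1 libraries lay below all 6 others for both genes. COL4A1 differed from M1 by a log2 fold change of 2.23 (SE 0.39, adjusted p = 0.00789) in M3 and 1.84 (SE 0.39, adjusted p = 0.0105) in M4, and COL4A2 by 2.32 (SE 0.35, adjusted p = 0.00473) and 2.00 (SE 0.35, adjusted p = 0.00519). In M2 against M1, COL4A2 was called at 1.54 (SE 0.35, adjusted p = 0.0487) while COL4A1 was not at 1.49 (SE 0.38, adjusted p = 0.0693). No call was made for either gene among M2, M3 and M4. The pair kept a near constant proportion, COL4A2 over COL4A1 per kb being 1.73 to 2.31 in the 8 libraries. With the doubtful libraries exchanged none of the 5 calls held. COL4A1 then gave 1.37 (adjusted p = 0.328) in M3 against M1 and 0.98 (adjusted p = 0.383) in M4 against M1, and COL4A2 gave 1.43 (adjusted p = 0.306), 1.11 (adjusted p = 0.321) and, in M2 against M1, 0.15 (adjusted p = 1). With neither library the 4 calls of M3 and M4 held, at log2 fold changes of 2.32 to 2.71, and COL4A2 in M2 against M1 gave 1.91 (adjusted p = 0.168). The M2 against M1 call of COL4A2 was also lost without M1 replicate 1, either M2 library or either M4 library (log2 1.25 to 1.56, adjusted p 0.0838 to 0.261), and that of COL4A1 in M4 against M1 without M4 replicate 2 (log2 1.68, adjusted p = 0.0579).

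The X-linked pair went the other way. COL4A5 (chrX:107683068-107940775, plus strand), which is mutated in X-linked Alport syndrome, stood at 123 and 210 CPM in M1, 147 and 145 for M2, 57 and 71.3 for M3, and 56.8 and 49.7 in M4. COL4A6 (chrX:107398837-107682727, minus strand) stood at 87.6 and 137 CPM in M1, 110 and 108 for M2, 38.6 and 41.6 for M3, and 26.8 and 23.7 in M4. For both genes every M3 and M4 library lay below every M1 and M2 library, and M2 overlapped M1. COL4A6 differed by -1.49 (SE 0.21, adjusted p = 0.00356) in M3 against M1, -2.15 (SE 0.22, adjusted p = 0.000563) in M4 against M1, -1.44 (SE 0.21, adjusted p = 0.0103) in M3 against M2 and -2.11 (SE 0.22, adjusted p = 0.0011) in M4 against M2. The same comparisons gave -1.38 (SE 0.25, adjusted p = 0.00866), -1.65 (SE 0.25, adjusted p = 0.00293), -1.19 (SE 0.25, adjusted p = 0.0356) and -1.46 (SE 0.25, adjusted p = 0.00674) for COL4A5. M2 against M1 showed neither gene called (log2 fold changes -0.19 and -0.05), nor did M4 against M3 (-0.27 and -0.67). With the libraries exchanged 7 of the 8 calls held, the exception being COL4A5 in M3 against M1 at -1.08 (adjusted p = 0.0837). With neither of them COL4A5 fell short in M3 against M1 at -0.94 (adjusted p = 0.0535) and in M3 against M2 at -1.18 (adjusted p = 0.0674). Leaving out single libraries ended the call of COL4A6 in M3 against M2 without either M2 library or M3 replicate 1 (log2 -1.46 to -1.38, adjusted p 0.0525 to 0.0952). For COL4A5 it ended the call in M3 against M1 without M1 replicate 2 (log2 -0.94, adjusted p = 0.0165), in M3 against M2 without either M2 library, either M3 library or either M4 library (log2 -1.36 to -1.03, adjusted p 0.0656 to 0.216), and in M4 against M2 without M4 replicate 2 (log2 -1.34, adjusted p = 0.0563). COL4A5 over COL4A6 per kb was 1.05 to 1.34 in M1, M2 and M3 and 1.66 and 1.64 in M4.

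Set against each other, the pairs gave the lines different proportions of type IV transcripts. The summed CPM per kb of COL4A1 and COL4A2 divided by that of COL4A5 and COL4A6 was 0.0604 and 0.061 in M1, 0.192 and 0.189 for M2, 0.562 and 1.00 for M3, and 0.769 and 0.94 in M4. M1 was thus lowest, M2 next, and the M3 and M4 libraries highest and overlapping. The libraries in doubt had 0.061 (labelled M1) and 0.192 (labelled M2), so exchanging them would give each of M1 and M2 one library at either value, with M3 and M4 still above both. The remaining pair was close to the lower end of detection. COL4A3, a chain of kidney and lung basement membranes, stood at 0.363 and 0.183 CPM in M1, 0.0491 and 0.0711 for M2, 0.19 and 0.218 for M3, and 1.25 and 0.359 in M4, and its partner COL4A4 at 0.979 and 0.281 CPM in M1, 0.344 and 0.213 for M2, 0.379 and 0.195 for M3, and 0.881 and 0.487 in M4. COL4A3 was called only in M4 against M2 (log2 3.74, SE 0.81, adjusted p = 0.0158), from 5 and 5 counts in M2 and 142 and 28 in M4, and this call was lost without either M2 library or M4 replicate 1 (log2 2.57 to 3.998, adjusted p 0.0953 to 0.13), with the libraries exchanged, 2.65 (adjusted p = 0.145), and with neither, 3.48 (adjusted p = 0.108). COL4A3 passed the filter on low counts through M1, M3 and M4 but not M2, which favoured this call. Its exons share 6.82% of their bases with the antisense gene MFF-DT, which had at most 63 counts, and whether the counting used strand was not stated. COL4A4 was called nowhere.

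**Figure D4:**
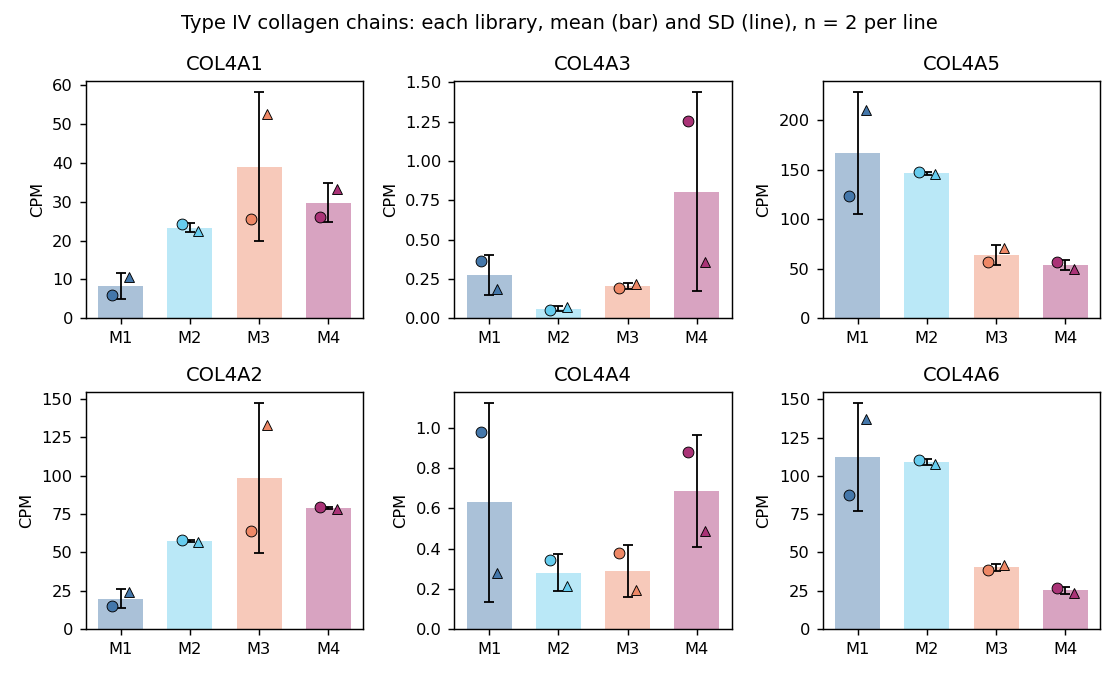
CPM of the 6 type IV chains (vertical axes, each from 0) in the 4 lines, with a symbol per library, bars for the mean and lines for the SD (n = 2). COL4A1 and COL4A2 are lowest in M1, while COL4A5 and COL4A6 are lowest in M3 and M4.

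Type VII collagen, the anchoring fibril of the epidermis, was abundant throughout. COL7A1 stood at 51.3 and 47.6 CPM in M1, 85.8 and 78.4 for M2, 70.9 and 123 for M3, and 51.1 and 59.7 in M4 and was called in no comparison. The nearest was M3 against M1, where the difference passed the adjusted p but not the fold limit (log2 0.97, SE 0.24, adjusted p = 0.0279). Without M3 replicate 1 it was called in M3 against M1 (log2 1.32, adjusted p = 0.00519) and M4 against M3 (log2 -1.16, adjusted p = 0.0131). Of the short chain network collagens, COL8A1, a chain of endothelial and other basement membranes, was highest in M3, the values being 2.77 and 4.87 CPM in M1, 12.3 and 12.4 for M2, 51.6 and 82.4 for M3, and 13.6 and 5.04 in M4. Both M3 libraries lay above all 6 others. It was called higher in M3 against M1 (log2 4.13, SE 0.53, adjusted p = 0.00272) and M3 against M2 (log2 2.44, SE 0.49, adjusted p = 0.033), and lower in M4 against M3 (log2 -2.85, SE 0.50, adjusted p = 0.0113). The call against M2 was lost without either M2 library or either M3 library (log2 2.07 to 2.74, adjusted p 0.0585 to 0.272). With the libraries exchanged the 3 values were 3.15 (adjusted p = 0.121), 2.96 (adjusted p = 0.136) and -2.85 (adjusted p = 0.0888), none of them called, and with neither library M3 against M2 alone was lost, at 2.43 (adjusted p = 0.2). M4 against M3 holds neither doubtful library, and its fold change for COL8A1 did not move with the exchange. The second type VIII chain, COL8A2, had 1 to 11 counts per library and was not tested, nor was COL10A1, the type X chain of growth plate cartilage.

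In type VI collagen, which forms beaded filaments from COL6A1, COL6A2 and a further chain, the members differed between lines in unlike ways. COL6A1 stood at 2.84 and 5.72 CPM in M1, 9.4 and 8.73 for M2, 7.12 and 12.5 for M3, and 0.652 and 1.27 in M4, lowest in both M4 libraries. It was called lower in M4 against M1 (log2 -2.16, SE 0.48, adjusted p = 0.0126), M2 (log2 -3.25, SE 0.50, adjusted p = 0.00442) and M3 (log2 -3.36, SE 0.50, adjusted p = 0.00691). These calls held with the doubtful libraries exchanged, and with neither of them the first gave -1.57 (adjusted p = 0.0955). The first was also lost without M1 replicate 2 or M4 replicate 1 (log2 -1.75 to -1.57, adjusted p 0.0557 to 0.0766) and the third without M4 replicate 1 (log2 -2.95, adjusted p = 0.0527). COL6A3 by contrast was high in M2 alone, standing at 0.411 and 0.403 CPM in M1, 12.3 and 11.2 for M2, 1.04 and 0.919 for M3, and 0.212 and 1.4 in M4. It was called higher in M2 against M1 (log2 4.85, SE 0.79, adjusted p = 0.0174) and lower against M2 in M3 (log2 -3.58, SE 0.74, adjusted p = 0.0347) and M4 (log2 -3.89, SE 0.75, adjusted p = 0.0105). These 3 calls depend on the library assignment. The high libraries were the ones labelled M2, and 1 of them is in doubt, so with the exchange M1 and M2 would each hold 1 high library and the values became -0.13 (adjusted p = 1), -2.57 (adjusted p = 0.493) and -2.86 (adjusted p = 0.324). With neither library they were 4.77 (adjusted p = 0.188), -3.52 (adjusted p = 0.147) and -3.82 (adjusted p = 0.053). They were also lost without either M1 library or either M2 library (log2 4.78 to 4.91, adjusted p 0.0553 to 0.113), either M2 library or either M3 library (log2 -3.67 to -3.50, adjusted p 0.126 to 0.191) and either M2 library (log2 -3.94 to -3.81, adjusted p 0.0535 to 0.0597), in that order.

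COL6A2, the constant partner of COL6A1, was scarcely detected, with 1 and 1 counts in M1, 0 and 0 for M2, 20 and 53 for M3, and 23 and 7 in M4. Counts of 7 or more were found only in M3 and M4. Against M2, where a floor of 3 counts per library was used, it was at least 11.9-fold higher in M3 and at least 4.05-fold higher in M4. It passed the filter on low counts through M3 and M4 only. Against the 2 counts of M1 the ratio was 36.2 in M3 (95% counting interval 9.66 to 304.2) and 12.9 in M4 (3.27 to 111.4). Intervals and floors here cover counting error only. All 4 differences were called (adjusted p = 0.0176 and 0.0438 against M1, 0.0233 and 0.0207 against M2). The filter favoured such calls, so they are no support for the differences. None was called with the libraries exchanged (adjusted p 0.0793 to 0.0995) or with neither (0.0846 to 0.168). The call of M4 against M1 was lost without any 1 of the 8 libraries (adjusted p 0.0563 to 0.181). The other calls were lost without either M1 library or M3 replicate 2 for M3 against M1 (0.0733 to 0.0945), either M2 library or M3 replicate 2 for M3 against M2 (0.0883 to 0.173), and either M2 library or M4 replicate 1 for M4 against M2 (0.0882 to 0.122). Per kb, COL6A1 exceeded COL6A2 in all 8 libraries. COL6A5 was at 0 throughout, COL6A6 had at most 36 counts, and the related COL28A1, at 0 to 1.43 CPM, was called nowhere before refitting. Without a filter on low counts COL28A1 was called lower than M1 in M3 (log2 -2.10, adjusted p = 0.0395) and M4 (log2 -3.31, adjusted p = 0.000492).

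**Figure D5:**
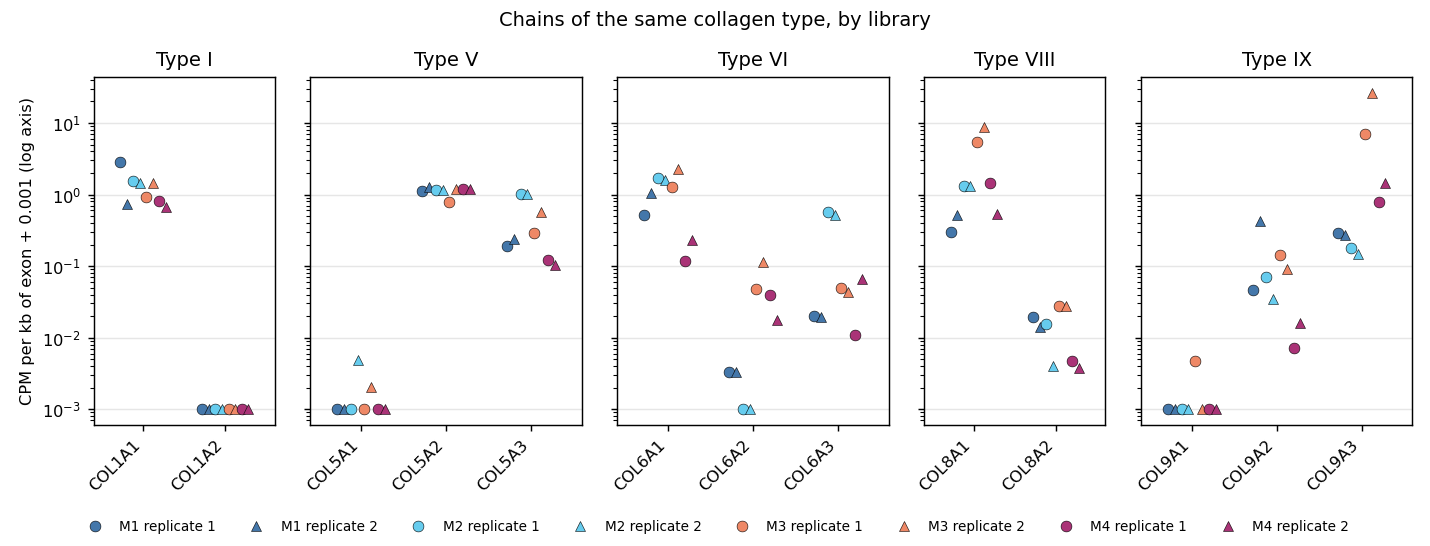
CPM per kb of exon (log axis, 0.001 added) of the chains of collagen types I, V, VI, VIII and IX in each of the 8 libraries. COL1A2, COL5A1 and COL9A1 lie at or near 0 while COL1A1, COL5A2 and COL9A3 of the same types are well detected.

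Among fibrillar collagens a chain was repeatedly found without its usual partner. COL1A1, the main chain of type I collagen, stood at 25.5 and 6.71 CPM in M1, 13.8 and 13.2 for M2, 8.43 and 13.2 for M3, and 7.31 and 6.07 in M4, whereas COL1A2, which joins pairs of COL1A1 chains in the common trimer, had 0 counts in all 8 libraries, which allows up to 3 counts per library. COL1A1 was called in no comparison before refitting. DESeq2 on all libraries called it lower in M4 against M1 (log2 -1.25, adjusted p = 0.034), and a fit without a filter on low counts in M4 against M1 and M2. With neither doubtful library M4 against M1 became a call at -1.93 (adjusted p = 0.0126), from -1.27 (SE 0.54, adjusted p = 0.114), and without M1 replicate 2 alone M4 against M1 (-1.93, adjusted p = 0.00509), M3 against M1 (-1.24, adjusted p = 0.0299) and M4 against M2 (-1.02, adjusted p = 0.0253) did. COL5A2 was among the steadiest members, at 8.18 and 9.26 CPM in M1, 8.52 and 8.44 for M2, 5.77 and 8.68 for M3, and 8.7 and 8.84 in M4, and was called nowhere, with log2 fold changes of -0.27 to 0.28. Its usual partner COL5A1 had 3 counts in M2 replicate 2, 1 in M3 replicate 2 and 0 elsewhere. COL3A1, the type III chain of soft connective tissue, had at most 8 counts. The third type V chain, COL5A3, was highest in M2, at 1.27 and 1.64 CPM in M1, 6.79 and 6.87 for M2, 1.93 and 3.9 for M3, and 0.828 and 0.705 in M4. It was called higher in M2 against M1 (log2 2.23, SE 0.40, adjusted p = 0.0225) and lower in M4 against M2 (log2 -3.15, SE 0.41, adjusted p = 0.00261) and M3 (log2 -1.93, SE 0.40, adjusted p = 0.0185). With the exchange none of the 3 was called, the values being 0.08 (adjusted p = 1), -2.47 (adjusted p = 0.125) and -1.93 (adjusted p = 0.25). The last, M4 against M3, holds neither doubtful library, and its fold change did not move. With neither library the first was lost (log2 2.44). The first was also lost without M1 replicate 1 or either M2 library (log2 2.06 to 2.24, adjusted p 0.0839 to 0.171) and the third without either M2 library or either M4 library (log2 -2.05 to -1.80, adjusted p 0.0506 to 0.099).

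COL27A1, a fibrillar chain known from cartilage, was lowest in M4. It stood at 6.01 and 19.4 CPM in M1, 10.9 and 7.68 for M2, 6.91 and 7.27 for M3, and 1.18 and 0.615 in M4, and every library of M4 lay below every library of the other lines. M4 was called lower than M1 (log2 -3.81, SE 0.60, adjusted p = 0.00328), M2 (log2 -3.36, SE 0.59, adjusted p = 0.00721) and M3 (log2 -2.97, SE 0.58, adjusted p = 0.0154). All 3 calls held with the libraries exchanged and with neither. The call against M2 was lost without M4 replicate 2 (log2 -2.95, adjusted p = 0.0532) and that against M3 without either M4 library (log2 -3.52 to -2.57, adjusted p 0.0634 to 0.0876). The cartilage chain COL2A1 was high in 1 library only, at 10.8 and 1.93 CPM in M1, 1.3 and 0.924 for M2, 1.15 and 0.287 for M3, and 0.264 and 0.871 in M4. It was called lower in M4 against M1 (log2 -3.50, SE 1.02, adjusted p = 0.0346), with the M1 mean set by replicate 1, and this was lost without M1 replicate 1, either M2 library or either M4 library (log2 -4.56 to -1.76, adjusted p 0.0703 to 0.193) and with the exchange (log2 -3.42, adjusted p = 0.108). COL11A2, a type XI chain, stood at 1.17 and 2.99 CPM in M1, 1.16 and 1.08 for M2, 0.442 and 0.253 for M3, and 2.07 and 0.628 in M4. It was called lower in M3 against M1 (log2 -2.58, SE 0.71, adjusted p = 0.0376). That call was lost without M1 replicate 2, either M2 library or either M3 library (log2 -3.03 to -1.75, adjusted p 0.0693 to 0.167), with the exchange (log2 -1.75, adjusted p = 0.268) and with neither library (log2 -1.75, adjusted p = 0.212). COL11A1 and COL24A1 had at most 13 and 16 counts.

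The largest difference among abundant collagens was that of COL9A3, a type IX chain otherwise known from cartilage. It stood at 1.4 and 1.31 CPM in M1, 0.874 and 0.711 for M2, 34 and 129 for M3, and 3.83 and 7.03 in M4. M3 was far above the rest, M4 next, and M1 and M2 lowest, with no overlap between M3, M4 and the other lines. The gene was called higher in M3 against M1 (log2 5.91, SE 0.70, adjusted p = 0.00233) and M2 (log2 6.67, SE 0.73, adjusted p = 0.00497), higher in M4 against M1 (log2 2.00, SE 0.61, adjusted p = 0.0422) and M2 (log2 2.76, SE 0.63, adjusted p = 0.0219), and lower in M4 against M3 (log2 -3.91, SE 0.63, adjusted p = 0.0096). The M3 libraries themselves were far apart, with a mean of 81.3 ± 67 CPM (SD, n = 2). With the exchange the calls of M3 against M1, M3 against M2 and M4 against M3 held, and M4 gave 2.26 (adjusted p = 0.0719) against M1 and 2.42 (adjusted p = 0.0555) against M2. With neither library the calls against M2 and that of M4 against M1 were lost, at 6.84 (adjusted p = 0.0845), 2.93 (adjusted p = 0.163) and 1.95 (adjusted p = 0.237). Leaving out single libraries ended the call of M4 against M1 without either M1 library, either M2 library or either M4 library (log2 1.52 to 2.38, adjusted p 0.0593 to 0.193), of M3 against M2 without either M2 library (log2 6.54 to 6.84, adjusted p 0.0933 to 0.098), of M4 against M2 without either M2 library or M4 replicate 2 (log2 2.29 to 2.93, adjusted p 0.0974 to 0.167) and of M4 against M3 without M4 replicate 1 (log2 -3.53, adjusted p = 0.0721). COL9A3 shares 3.2% of its exonic bases with TCFL5 on the opposite strand, which had at most 1408 counts.

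Of the other type IX chains, COL9A1 had 3 counts in M3 replicate 1 and 0 elsewhere. COL9A2 stood at 0.193 and 1.79 CPM in M1, 0.295 and 0.142 for M2, 0.606 and 0.379 for M3, and 0.0264 and 0.0641 in M4. Its M4 libraries lay below all others, and its M3 libraries above those of M2 and within the range of M1. COL9A2 passed the filter on low counts through M1, M2 and M3, so that a call of M4 below another line was favoured. In M4 against M3 it differed by -3.46 (SE 1.13, adjusted p = 0.072), which was not called, where COL9A3 gave -3.91, but it was called with neither doubtful library (log2 -3.46, adjusted p = 0.0431) and without M1 replicate 1 (adjusted p = 0.0179) or M1 replicate 2 (0.0253). In M3 against M2 it gave 1.15 (SE 0.97, adjusted p = 0.542), where COL9A3 gave 6.67, and in M3 against M1 -1.01 (SE 0.94, adjusted p = 0.474), where COL9A3 gave 5.91. It was called lower in M4 against M1 (log2 -4.47, SE 1.14, adjusted p = 0.0217), a call that was lost without M1 replicate 2 or either M4 library (log2 -5.14 to -2.11, adjusted p 0.0858 to 0.142), with the exchange (log2 -2.44, adjusted p = 0.229) and with neither library (log2 -2.11, adjusted p = 0.193). Of 5 chondrocyte markers, SOX9, which epithelial cells also express, made up nearly all of the summed level, which was 172 and 251 CPM in M3, 94.3 and 254 for M1, 123 and 127 for M2, and 112 and 89.2 in M4. ACAN, the cartilage proteoglycan, was at 0 in M1 and M2, 0.253 and 0.161 CPM in M3 and 0.194 and 0.128 CPM in M4, and was called higher than M1 in M3 (adjusted p = 0.0222) and M4 (0.0191). ACAN passed the filter on low counts through M3 and M4 alone, so these calls are no support for a difference. COMP was at 0 throughout. The part of such cells in the COL9A3 result was not tested.

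Of the remaining fibril-associated collagens 2 were abundant. COL12A1, which coats type I fibrils, stood at 45.9 and 72.2 CPM in M1, 18.2 and 17 for M2, 72.3 and 147 for M3, and 123 and 36.3 in M4. It was lowest in both M2 libraries and before refitting was called only in M4 against M2 (log2 2.18, SE 0.59, adjusted p = 0.037), although M3 against M2 gave a larger value (log2 2.64, SE 0.60, adjusted p = 0.0504). The call was lost without either M2 library or M4 replicate 1 (log2 1.05 to 2.23, adjusted p 0.171 to 0.218), with the exchange (log2 0.84, adjusted p = 0.536) and with neither library (log2 2.23, adjusted p = 0.204). DESeq2 on all libraries also called COL12A1 in M3 against M2 (log2 2.64, adjusted p = 2.8e-06) and M2 against M1 (log2 -1.76, adjusted p = 0.00487). Fits of only the 2 lines compared did too (adjusted p = 0.0304 and 0.0386). With the exchange the edgeR values were 1.30 (adjusted p = 0.459) and 0.48, neither called. COL16A1, another chain of this class, stood at 50.5 and 242 CPM in M1, 91.1 and 86 for M2, 55.7 and 88.4 for M3, and 64.3 and 42.2 in M4 and was called in no comparison before refitting. DESeq2 on all libraries called COL16A1 lower in M4 against M1 (log2 -1.44, adjusted p = 0.021), and a fit without a filter on low counts in M3 and M4 against M1. Its value in M1 replicate 2, 1 of the libraries in doubt, was the highest of all. Without M1 replicate 1, which leaves that library alone in M1, M3 and M4 were called lower than M1 (log2 -1.74 and -2.17, adjusted p = 0.0167 and 0.00462).

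COL21A1, a low-abundance relative, stood at 0.52 and 3.23 CPM in M1, 1.14 and 1.15 for M2, 0.202 and 0.287 for M3, and 0.185 and 0.141 in M4. The M3 and M4 libraries lay below all M1 and M2 libraries. It was called lower in M3 against M1 (log2 -2.93, SE 0.80, adjusted p = 0.0377), M4 against M1 (log2 -3.50, SE 0.83, adjusted p = 0.0161) and M4 against M2 (log2 -2.79, SE 0.81, adjusted p = 0.0437). With the exchange the first 2 were lost at -1.76 (adjusted p = 0.233) and -2.33 (adjusted p = 0.0751) and the third held at -3.73 (adjusted p = 0.0202), and with neither library the values were -1.08 (adjusted p = 0.37), -1.66 (adjusted p = 0.158) and -2.81 (adjusted p = 0.05). In the same order they were lost without M1 replicate 2, either M2 library, either M3 library or either M4 library (log2 -3.20 to -1.08, adjusted p 0.0611 to 0.214), M1 replicate 2 or either M4 library (log2 -3.71 to -1.66, adjusted p 0.0697 to 0.103) and either M2 library, either M3 library or either M4 library (log2 -3.01 to -2.60, adjusted p 0.0631 to 0.185). COL14A1, a chain of tendon and skin fibrils, had 19 and 108 counts in M1, 3 and 7 for M2, 11 and 24 for M3, and 0 and 2 in M4. M4 was called lower than M1 (adjusted p = 0.0163), a ratio of 73.8 with a counting interval of 20.02 to 616. COL14A1 passed the filter on low counts through M1 and M3 only, which favoured this call, so it is no support for the difference. The call was lost without M1 replicate 2 or M4 replicate 1 (log2 -4.83 to -4.20, adjusted p 0.0863 to 0.0871), with the exchange (adjusted p = 0.274) and with neither library (0.101).

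COL22A1, a chain of tissue junctions such as those of muscle and tendon, was detected in M3 only. It had 47 and 88 counts there and 0 in the other 6 libraries, where 0 allows up to 3 counts per library. M3 was therefore at least 22.0-fold higher than M1, 22.2-fold higher than M2 and 24.7-fold higher than M4. It passed the filter on low counts through M3 alone and so had to differ from the other lines. The calls that edgeR made against M1, M2 and M4 (adjusted p = 0.013, 0.0322 and 0.0161) are therefore no support for the difference, and DESeq2 made none (0.183, 0.291 and 0.189).

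Of the collagens that are not purely matrix proteins, COL13A1, a membrane-spanning chain of cell adhesion sites, was highest in M3, at 0.181 and 0.744 CPM in M1, 1.04 and 1.04 for M2, 4.24 and 4.29 for M3, and 1.54 and 1.44 in M4. Both M3 libraries lay above all others. It was called in M3 against M1 (log2 3.20, SE 0.60, adjusted p = 0.00979), and this held without each single library and with neither of the doubtful ones, but not with the exchange (log2 2.79, adjusted p = 0.123). With neither of them M4 against M1 (log2 3.03, adjusted p = 0.0166) and M4 against M3 (log2 -1.52, adjusted p = 0.0498) were called too, from 1.68 (SE 0.57, adjusted p = 0.0576) and -1.52 (SE 0.56, adjusted p = 0.0987) with all libraries. Without M1 replicate 2 both of these, M2 against M1 (2.51, adjusted p = 0.0259) and M3 against M2 (2.04, adjusted p = 0.00979) were called. COL18A1, the basement membrane chain from which endostatin is cut, stood at 6.87 and 22.9 CPM in M1, 29.3 and 28.2 for M2, 24.3 and 67.8 for M3, and 8.9 and 20.3 in M4 and was called nowhere before refitting. With a replicate block M3 against M1 (log2 1.67, adjusted p = 0.0338) and M4 against M3 (log2 -1.61, adjusted p = 0.0447) were called, as they were without a filter on low counts. Without M1 replicate 2 M3 against M1 was called at a log2 fold change of 2.75. Its exons share 18.5% of their bases with SLC19A1 on the opposite strand, which had up to 3292 counts, so its counts are uncertain to that extent. Of the 16 members that were not tested, COL1A2 and COL6A5 were at 0 in all libraries. COL15A1, COL19A1, COL20A1, COL23A1, COL25A1 and COL26A1 had at most 1 to 9 counts in any library, and the highest count of any untested member was 36.

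Genes whose products process or bind collagens were examined alongside. Of all genes tested, 8.02% were called higher and 5.51% lower in M3 against M1. Enzymes and chaperones of chain synthesis and folding (18 of 19 tested) were called higher 7 times (38.9%) and lower 0 times there, enzymes of propeptide cleavage and crosslinking (14 of 15 tested) 6 (42.9%) and 0 times, collagen receptors and uptake proteins (10 of 13 tested) 4 (40%) and 0 times, and matrix proteins that bind collagen (15 of 17 tested) 1 (6.67%) and 4 times (26.7%). The median log2 fold changes of the 4 lists were 0.87, 1.40, 0.71 and -0.83, where that of all genes was -0.02. In M4 against M3, with a background of 3.99% higher and 6.3% lower, the same lists in that order gave 0 higher and 3 lower (16.7%), 0 and 5 (35.7%), 2 (20%) and 3 (30%), and 0 and 4 (26.7%). In M4 against M1, with a background of 9.48% and 11.2%, they gave 1 (5.56%) and 2 (11.1%), 2 and 2 (14.3% each), 3 and 3 (30% each), and 1 (6.67%) and 8 (53.3%). In M2 against M1 (background 2.26% and 1.11%) they were called 1 and 0, 0 and 0, 1 and 0, and 0 and 1 times, in M3 against M2 (2.95% and 1.2%) 2 and 0, 2 and 0, 1 and 0, and 2 and 0 times, and in M4 against M2 (6.98% and 6.94%) 0 and 2, 3 and 3, 2 and 3, and 1 and 3 times. P3H3 of the first list passed the filter on low counts through M3 alone, and FMOD of the last list through M1 alone. The filter favoured the calls of P3H3 for M3 over M1, M2 and M4, and those of FMOD for M3 and M4 below M1. They are no support for a difference but remain in these counts. Other genes of the lists were not screened for this. With the doubtful libraries exchanged, the calls in M3 against M1 fell to 1, 2, 0 and 1 in all for the 4 lists. The share of all genes called under the exchange was not taken. Single libraries moved the counts too, and without M4 replicate 1 those of M4 against M3 were 1, 3, 3 and 0 in all and that of the matrix proteins in M4 against M1 was 5. Without either M2 library the calls in M3 against M2 fell to 0, 1, 0 and 0.

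Of the synthesis genes, SERPINH1, the chaperone of the collagen triple helix, stood at 95.6 and 188 CPM in M1, 222 and 217 for M2, 139 and 127 for M3, and 55.3 and 72.9 in M4. M4 was lower than M2 (log2 -1.78, SE 0.30, adjusted p = 0.0063), M1 (log2 -1.15, SE 0.29, adjusted p = 0.0219) and M3 (log2 -1.05, SE 0.29, adjusted p = 0.0464). With the exchange the last 2 were not called, at -1.31 (adjusted p = 0.0663) and -1.05 (adjusted p = 0.138), with neither library the second gave -0.58 (adjusted p = 0.171), and in the order given they were lost without M4 replicate 1 (log2 -1.59, adjusted p = 0.0555), M1 replicate 2 or either M4 library (log2 -1.34 to -0.58, adjusted p 0.063 to 0.129) and either M2 library, either M3 library or either M4 library (log2 -1.25 to -0.86, adjusted p 0.0908 to 0.229). M4 against M3 holds neither doubtful library, and its fold change for SERPINH1 did not move with the exchange. P3H2, a prolyl hydroxylase known to act on type IV collagen, stood at 90.7 and 111 CPM in M1, 122 and 122 for M2, 288 and 250 for M3, and 35.9 and 21.1 in M4. It was highest in M3 and lowest in M4, with M4 against M3 at -3.24 (SE 0.26, adjusted p = 0.00119) and M4 against M1 at -1.82 (SE 0.25, adjusted p = 0.00192), both kept under each single library left out. M3 was also higher than M1 (log2 1.42, SE 0.25, adjusted p = 0.0075), although not with the exchange (log2 1.34, adjusted p = 0.0749). A related enzyme, P3H3, was at 0 in M1 and M2, 1.21 and 0.586 CPM in M3 and 0.0088 and 0.0128 CPM in M4. P3H3 passed the filter on low counts through M3 alone, so its calls are no support for a difference.

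Of the crosslinking enzymes, LOX, which oxidises collagen lysines, was highest in M3 and lowest in M4, at 61.3 and 35.3 CPM in M1, 89.7 and 89.3 for M2, 233 and 110 for M3, and 30.7 and 29.7 in M4. M4 against M3 was called at -2.51 (SE 0.38, adjusted p = 0.00751), lost without M4 replicate 1 (log2 -2.53, adjusted p = 0.0598), and M3 against M1 at 1.83 (SE 0.37, adjusted p = 0.0133), lost without M1 replicate 2 (log2 1.49, adjusted p = 0.0509) and with the exchange (log2 1.18, adjusted p = 0.257). LOXL4, a LOX relative, was nearly absent from M1 and M2 and stood at 1.06 and 1.83 CPM in M3 and 4.23 and 2.73 CPM in M4. TGM2, a transglutaminase, was at 53.9 and 43.3 CPM in M3 against 0.183 to 3.59 CPM elsewhere, with M3 against M1 at 7.08 (SE 0.55, adjusted p = 0.000508) and 6.54 (adjusted p = 0.00446) with the exchange. TLL1, a protease of procollagen, was lowest in M4 at 0.212 and 0.115 CPM against 1.71 to 12.9 CPM in the other lines.

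Of the receptors, ITGA2, the epithelial integrin chain for fibrillar collagens, stood at 30.5 and 51.4 CPM in M1, 50 and 49.6 for M2, 76.6 and 114 for M3, and 297 and 301 in M4. Both M4 libraries lay above all others, with M4 against M1 at 2.87 (SE 0.28, adjusted p = 0.000531) and against M3 at 1.65 (SE 0.27, adjusted p = 0.0091), the latter lost without M4 replicate 1 (log2 1.66, adjusted p = 0.0533). With the exchange M4 against M1 was 2.89 (adjusted p = 0.0037). ANTXR2, a receptor that binds type IV and VI collagen, was likewise highest in M4, at 10.4 and 13.3 CPM in M1, 25.8 and 26.1 for M2, 22.7 and 35.8 for M3, and 93 and 81.2 in M4, with M4 against M1 at 2.88 (SE 0.25, adjusted p = 0.000335). MRC2, which takes up collagen for breakdown, was lowest in M4, at 52.7 and 190 CPM in M1, 172 and 169 for M2, 89.1 and 152 for M3, and 11.3 and 15.7 in M4, with M4 against M1 at -3.17 (SE 0.59, adjusted p = 0.00722), lost without M4 replicate 1 (log2 -2.94, adjusted p = 0.0544), and -3.05 (adjusted p = 0.0186) with the exchange. DDR1, a receptor tyrosine kinase for collagen, stood at 373 and 540 CPM in M1, 308 and 300 for M2, 467 and 364 for M3, and 264 and 261 in M4 and was called in no comparison. Of the matrix proteins, DCN, a small proteoglycan that coats collagen fibrils, stood at 34.1 and 1.62 CPM in M1, 60.2 and 58.6 for M2, 1.01 and 2.11 for M3, and 0.167 and 0.0128 in M4. M4 against M1 was called at -7.45 (SE 1.59, adjusted p = 0.0125) and lost without either M4 library (log2 -10.28 to -6.70, adjusted p 0.0579 to 0.0848), and the M1 libraries were far apart. BGN, a relative of DCN, had 661 counts in M1 and 1 in M4, a ratio of 769 with a counting interval of 137.5 to 30400. POSTN, a protein of collagen assembly, was at 0 in M4 and at most 0.537 CPM elsewhere, at least 11.1-fold lower than in M1.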

How the data were processed

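Poly A+ RNA of the 4 lines was sequenced by the authors as paired-end reads. Per the authors' methods and the submitters' processing notes, reads were trimmed with Trimmomatic, aligned with STAR to hg19 (GRCh37) and quantified with RSEM on GENCODE v19; tool versions and any use of strand are not given in the sources used here. The deposited values are expected counts per gene, unnormalized, of which 12.8% are not whole. They were rounded to whole numbers. Symbols, exon lengths and coordinates came from GENCODE release 44 on GRCh37, which matched 94.7% of genes with a count. Depth was 69669970 to 107350344 counts per library, and each line had 2 libraries named biological replicates. All p-values rest on a spread estimated jointly from the pairs of all lines, also in comparisons without M2. The coefficient of variation between replicates was 0.058 in M2 and 0.271 to 0.377 in the other lines. Leaving out an M2 library could therefore end calls in comparisons without M2 too.

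Genes were tested with edgeR 4.0.16 (TMM, filterByExpr, robust quasi-likelihood F test, 1 coefficient per line over all 8 libraries, Benjamini-Hochberg over 18431 genes) in R 4.3.3, after the step was tested on simulated data. Calls needed an adjusted p under 0.05 and an absolute log2 fold change above 1. SEs are those implied by the F statistic. Alternatives were RLE size factors, DESeq2 1.42.0, other filters, a replicate block, fits of 2 lines, left-out libraries, the exchange of the 2 libraries in doubt and, chosen after seeing the data, neither of them. Of partner lists, genes called in at least 2 comparisons were named, at most 3 per list by the size of the M4 against M1 change, besides SERPINH1, LOX, ITGA2 and DDR1. Members, classes, lists and tests were chosen with earlier results of these data known. PECAM1 was not analysed here.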

Additional observations from a re-analysis of the deposited data

How the results depend on the processing

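Counts of called collagen genes in M2 against M1, M3 against M1, M4 against M1, M3 against M2, M4 against M2 and M4 against M3 were 3, 11, 12, 7, 11 and 6. With the 2 doubtful libraries exchanged they were 0, 2, 4, 3, 5 and 4, and with neither of them 0, 8, 8, 1, 6 and 8. DESeq2 called 8 in M2 against M1. The shares of all genes called were not taken under any of the alternatives given here, so their counts cannot be set against a background. Without a filter on low counts the calls were 10 in M2 against M1, 17 in M3 against M1, 12 in M3 against M2 and 13 in M4 against M3. The 2-fold rule in both replicates, which uses no test, gave 12 in M2 against M1, 14 in M3 against M2, 18 in M4 against M2 and 15 in M4 against M3. Leaving out each library in turn gave 0 to 4, 7 to 11, 6 to 11, 0 to 10, 5 to 12 and 1 to 8. One member value reversed, COL6A3 in M2 against M1, which was -0.126 on the log2 scale with the exchange. With the exchange M1 and M2 each held 1 library at 11.2 or 12.3 CPM and 1 at 0.4 CPM.

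Of the 50 calls, RLE size factors kept 49 and lost COL4A2 in M2 against M1 (adjusted p = 0.0522). DESeq2 kept 46, losing the 3 of COL22A1 and COL6A2 in M4 against M1 (adjusted p = 0.0635), and added 20. A fit of only the 2 lines compared kept 41 of 48, losing COL9A2 and COL2A1 in M4 against M1, COL11A2 in M3 against M1, COL21A1 in both of these, COL5A3 in M4 against M3 and COL6A2 in M3 against M2 (adjusted p 0.0515 to 0.104). A filter at 1 CPM in at least 2 libraries kept all 40 it could test. Replicate numbers did not pair the samples, since deviations correlated at -0.024 to 0.122 over the 6 pairs of lines. With the replicate block the calls numbered 4, 13, 10, 5, 10 and 8. It kept 45 of the 50 and lost COL8A1, COL12A1 and COL22A1 against M2 and COL2A1 and COL6A2 in M4 against M1 (adjusted p 0.0573 to 0.0723). Of 24 counts over partner lists, 14 moved by more than 1.5 times with the exchange, 6 with neither library, 12 without M4 replicate 1, 10 and 9 without M2 replicate 1 or 2, and 4 to 6 without each other library. Leaving out single libraries added 0 to 12 calls of collagen genes, the 12 being without M1 replicate 2. With 2 libraries a line and 1 left where a replicate was dropped, the lone library was assumed to vary like the other lines. At this depth a count of 0 allows up to 3 counts per library.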
